A study of Homo sapiens with 24 samples.

Results

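The genes described here are 7 transcriptional readouts of ERK signaling, the phosphatase genes DUSP6, DUSP5 and DUSP1, the inhibitor gene SPRY2, the transcription factor genes EGR1 and FOS, and PHLDA1. They were read by 8 array probes (DUSP6 by a pair), chosen by probe identifier out of 47323 probes, and all 8 were among the 20027 probes that passed the filter on dim signals. RNA came from 4 Hodgkin lymphoma (HL) cell lines. Cultures of L-540 and SUP-HD1, and of L-428 and KM-H2, received vehicle (DMSO, labelled CTRL) or 10 μM AEZS-136 for 24 hours, with 3 arrays for each of the 8 groups. The paper describes AEZS-136 as a dual inhibitor of PI3K and ERK. At this dose and at earlier times, it reports that ERK phosphorylation fell in L-540 and SUP-HD1 but rose in KM-H2 and L-428. All groups were grown in the same medium, and the labels name no genetic modification of any line. In the study the first pair of lines died on AEZS-136 (sensitive) and the second pair did not (resistant), so each class was represented by only 2 lines, and a p-value for a class difference measures the spread between arrays and not between lines. The labels number the replicates without saying whether they were separate cultures, so the spread between arrays may be in part technical. In bulk RNA, a lower share of cells with a transcript and less transcript per cell cannot be told apart.

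The RAS-RAF-MEK-ERK cascade carries signals from receptors at the cell surface to the nucleus. Active ERK phosphorylates transcription factors such as ELK1, which together with SRF switch on immediate early genes like FOS and EGR1 without new protein synthesis. Among the genes induced in this way are brakes on the cascade itself, and for this reason their transcripts serve as readouts of ERK output. Dual-specificity phosphatases (DUSPs) remove the activating phosphates from MAP kinases, and Sprouty proteins restrain signaling upstream, between receptors and RAF. In Hodgkin Reed-Sternberg cells, the tumor cells of HL, the PI3K and ERK pathways are known to be active.

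The sequences upstream of the genes were compared first, since binding sites for SRF (the CArG box, searched by name), CREB (the cAMP response element CRE, TGACGTCA), AP-1 (TGANTCA) and ETS factors (CCGGAA) are classical features of immediate early promoters. The 250 bases before the RefSeq transcription start (GRCh38.p14) were available for 6 of the 7 genes, all but DUSP5, and both strands were searched. DUSP1, whose response to AEZS-136 was called in a pair of lines, and EGR1, whose response was called in none, are shown from 5′ to 3′ on the strand of the gene, in lower case with motif matches in capitals. DUSP1 (chr5:172771196-172771445, minus strand) held 1 CRE, from base 125 to base 118 before the start, and EGR1 (chr5:138465229-138465478, plus strand) held 2 CArG boxes, from base 105 to base 96 and from base 83 to base 74.
DUSP1: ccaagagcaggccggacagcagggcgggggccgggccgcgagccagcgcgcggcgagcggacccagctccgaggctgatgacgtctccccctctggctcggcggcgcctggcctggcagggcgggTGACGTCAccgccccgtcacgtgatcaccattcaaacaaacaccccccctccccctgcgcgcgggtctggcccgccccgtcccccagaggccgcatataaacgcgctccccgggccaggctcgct
EGR1: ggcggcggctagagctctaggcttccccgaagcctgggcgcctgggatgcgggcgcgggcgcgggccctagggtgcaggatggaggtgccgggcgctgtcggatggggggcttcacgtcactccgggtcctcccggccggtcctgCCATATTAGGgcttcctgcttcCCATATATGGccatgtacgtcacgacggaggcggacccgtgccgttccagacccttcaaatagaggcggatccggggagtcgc
A full CRE was present in 1.65% and a CArG box in 1.16% of 35116 upstream windows of the same length. An ETS match, found in 14.5% of all windows, was present upstream of PHLDA1 and of 1 of the SPRY2 starts, and an AP-1 match, found in 6.57% of all windows, in none of the 6 genes. No match overlapped another, and the windows of DUSP6 and FOS held none of the 4 motifs. Sites farther upstream or with other letters would be missed, so both genes may still hold such sites. These matches describe letters and not bound sites.

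The arrays gave mean raw signals of 297 to 361 arbitrary units, with the exception of replicate 3 of AEZS-136-treated L-428 cells at 256, and 29.6% to 33.7% of probes were above background (detection p under 0.01). Of 7 fixed Hodgkin Reed-Sternberg markers, 6 were above background on all arrays of L-540, SUP-HD1 and L-428 and 5 in KM-H2, while the probe for TNFRSF8, which encodes CD30, was above background on all arrays of L-540 only. B lineage markers were above background in 0 to 1 of 6, T lineage markers in 0 to 1 of 6, myeloid markers in 1 of 5 (3 of 5 in KM-H2) and fibroblast markers in 0 of 4 (1 of 4 in KM-H2). Signals below are quantile-normalized values in arbitrary units, listed in the order of replicates 1, 2 and 3, and cannot be compared between probes. No background was subtracted from them, so folds of dim probes, between treatments or lines, can lie closer to 1 than with subtraction. A response is the log2 fold change of AEZS-136 over vehicle with its standard error (SE), and a probe was called at an adjusted p under 0.05 (limma, Benjamini-Hochberg over all 20027 probes) with a log2 fold change of 0.4 or more in either direction.

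After 24 hours of AEZS-136, 2 of the 7 genes, DUSP1 and DUSP5, had a called response in any line. DUSP1 rose 1.69-fold in L-540 and 1.52-fold in SUP-HD1. DUSP5 rose 2.68-fold in L-540 and fell by 0.49 on the log2 scale in KM-H2. No response of DUSP6, SPRY2, EGR1, FOS or PHLDA1 was called in these signals. With normexp background correction, DUSP6 probe ILMN_2396020 in L-540 (0.76) and SUP-HD1 (-0.63) and FOS in KM-H2 (-0.73) were among the responses called. In L-540, 2 of 8 probes were called, both higher, against 19.5% of all probes. For SUP-HD1 the count was 1, higher, against 12.8% of all probes, for KM-H2 it was 1, lower, against 7.90%, and for L-428 it was 0 against 13.3%. In L-428 the limma p before adjustment was under 0.05 for 6 of the 8 probes. The share of all probes at that unadjusted p was not computed, so the count cannot be set beside it. The methods' t-test also called 0 of the 8 in L-428, against 1438 of 20027 probes. At the adjusted p alone, 4 probes passed in L-428 (26.8% of all probes), 3 in L-540 (35.5%), 2 in KM-H2 (18.2%) and 1 in SUP-HD1 (25.8%). Treated and vehicle arrays did not overlap for 5 probes in L-540 (45.6% of all probes), 5 in KM-H2 (31.6%), 4 in L-428 (37.2%) and 2 in SUP-HD1 (36.8%). Probes above background on no array of the line entered these counts, SPRY2 and FOS in L-540, SPRY2 in KM-H2 and DUSP6 probe ILMN_1677466 in SUP-HD1. With 8 probes the counts, and the medians that follow, are given as descriptions, and such probes are part of the medians too. The median log2 fold change of the 8 probes was 0.16 in L-540 (0.0068 over all probes), -0.12 in L-428 (-0.0017), 0.03 in KM-H2 (-0.0067) and 1.4e-05 in SUP-HD1 (0.00085).

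**Figure D1:**
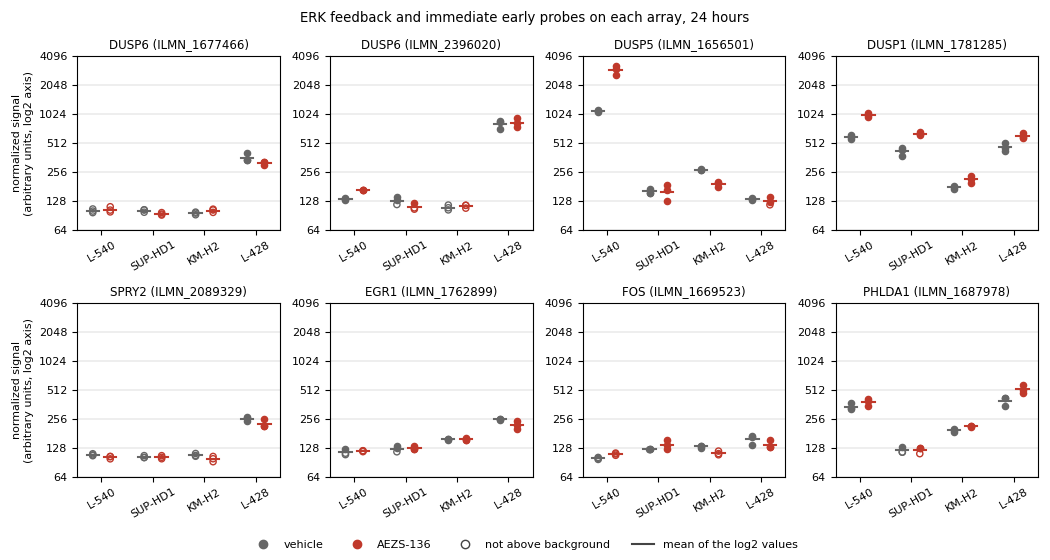
Normalized signal of the 8 probes (log2 axis, arbitrary units) on each array, by cell line. Gray points are vehicle arrays, red points AEZS-136 arrays, open points are arrays on which the probe was not above background, and bars are means of log2 values over 3 arrays. DUSP5 in L-540 is seen to move from 1069 to 1132 with vehicle to 2643 to 3211 with AEZS-136, and DUSP6 and SPRY2 stand high in L-428.

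DUSP1 encodes a nuclear phosphatase that acts on JNK and p38 as well as on ERK, and is itself an immediate early gene (ILMN_1781285, gene at chr5:172768096-172771195 in GRCh38.p14). In L-540 its signals were 569.6, 615 and 586 with vehicle and 960.0, 1042 and 994 with AEZS-136. In SUP-HD1 they were 379, 437 and 455 with vehicle and 643, 616 and 673 with AEZS-136. In KM-H2 they were 182, 179.6 and 169 with vehicle and 199, 217 and 233 with AEZS-136. Treated arrays lay above vehicle arrays without overlap in these lines, and the same held in L-428. There the signals were 451, 509 and 426 with vehicle and 594, 574 and 649 with AEZS-136. The response was 0.76 (SE 0.080, adjusted p = 2.1e-08) in L-540 and 0.61 (SE 0.080, adjusted p = 2.33e-06) in SUP-HD1. In KM-H2 it was 0.29 (adjusted p = 0.0119) and in L-428 0.39 (adjusted p = 0.000437), both past the adjusted p but under the minimum change. The L-428 value lay at the edge of the threshold and was called in 7 of 35 alternative settings, 3 of which left out 1 array of L-428, namely vehicle replicate 2 (0.47) and AEZS-136 replicates 1 (0.41) and 2 (0.43). DUSP1 was thus the 1 probe of the 8 with treated arrays above all vehicle arrays in every line.

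DUSP5 encodes a nuclear phosphatase selective for ERK (ILMN_1656501, gene at chr10:110497907-110511533). In L-540 its signals were 1110.2, 1069 and 1132 with vehicle and 3039, 2643 and 3211 with AEZS-136. In KM-H2 they were 267, 276 and 268 with vehicle and 180.1, 202 and 197 with AEZS-136. The treated arrays lay above all vehicle arrays in L-540 and below all of them in KM-H2. The response was 1.42 (SE 0.099, adjusted p = 1.12e-11) in L-540 and -0.49 (SE 0.099, adjusted p = 0.000739) in KM-H2. In SUP-HD1 the signals were 154, 156 and 172 with vehicle and 128, 187 and 165 with AEZS-136, and the groups overlapped (-0.02, 95% interval -0.22 to 0.18, adjusted p = 0.927). In L-428 they were 135.8, 130.0 and 135 with vehicle and 141, 116 and 126 with AEZS-136, again overlapping (-0.07, 95% interval -0.27 to 0.14, adjusted p = 0.688), with the probe above background on 2 of the 3 treated arrays. The call in KM-H2 was lost under median scaling of the arrays, where the response was -0.37.

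DUSP6 encodes a cytoplasmic phosphatase selective for ERK (gene at chr12:89347235-89352501). Its probe ILMN_1677466 was above background in L-428 only, with signals of 344, 339 and 401 with vehicle and 321, 304 and 322 with AEZS-136. All treated arrays lay below all vehicle arrays (-0.19, SE 0.069, adjusted p = 0.04), short of the minimum change. In the other lines signals of 91.0 to 111 were not above background on any array, and no fold is given. The other probe, ILMN_2396020, gave 721, 865 and 849 with vehicle and 826, 749 and 933 with AEZS-136 in L-428, and these groups overlapped (0.04, adjusted p = 0.785), so the pair of probes did not agree on a lower DUSP6 there. In L-540 this probe gave 135, 131 and 136.1 with vehicle and 166, 168 and 165 with AEZS-136, without overlap (0.32, SE 0.084, adjusted p = 0.00414), short of the minimum change. With normexp background correction this response came to 0.76 and was called, as was that of SUP-HD1 at -0.63. That correction raised the calls over all probes from 3915 to 6612 in L-540 and from 2557 to 4711 in SUP-HD1. In SUP-HD1 ILMN_2396020 gave 117, 131 and 139 with vehicle and 108, 105 and 121 with AEZS-136 (-0.21, adjusted p = 0.0682). There it was above background on 2 vehicle arrays and 1 treated array. In KM-H2 neither group was above background.

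SPRY2 encodes a Sprouty protein that restrains signaling from receptor tyrosine kinases to ERK (ILMN_2089329, gene at chr13:80335976-80341126). It was above background in L-428 only, with 261, 270.2 and 245 with vehicle and 217, 217 and 255 with AEZS-136. The groups overlapped through replicate 3 of the treated cells (-0.18, SE 0.069, adjusted p = 0.062). In L-540, SUP-HD1 and KM-H2 its signals, 91.8 to 112, were not above background on any array.

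EGR1 encodes a zinc-finger transcription factor (ILMN_1762899, gene at chr5:138465479-138469303). In L-428 its signals were 258, 256 and 248 with vehicle and 203, 243 and 221 with AEZS-136, with all treated arrays below all vehicle arrays (-0.20, SE 0.069, adjusted p = 0.0357), but under the minimum change. In KM-H2 they were 154, 158 and 158 with vehicle and 156, 161 and 156 with AEZS-136 and overlapped (0.0074, adjusted p = 0.967). In SUP-HD1 they were 116, 133 and 126 with vehicle and 133, 124 and 125 with AEZS-136 (0.03, adjusted p = 0.857), above background on 2 vehicle and 3 treated arrays, and in L-540 the probe was above background on 1 vehicle array and on no treated array.

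FOS encodes a partner of JUN in the AP-1 transcription factor (ILMN_1669523, gene at chr14:75278828-75282230). In KM-H2 its signals were 129, 135 and 133 with vehicle and 111, 108 and 118 with AEZS-136. The treated arrays lay below the vehicle arrays and none was above background, at a limma adjusted p of 0.0511 that missed the threshold. The vehicle mean stood 1.08-fold above the lowest signals above background on the treated arrays, with no allowance for the spread between arrays. In L-428 the signals were 139, 170.3 and 168 with vehicle and 131, 129 and 153 with AEZS-136 and overlapped (-0.20, adjusted p = 0.0704). In SUP-HD1 they were 122, 124 and 126 with vehicle and 135.6, 125 and 155 with AEZS-136 (0.15, adjusted p = 0.187), and in L-540 the probe was not above background on any array.

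PHLDA1 encodes a pleckstrin homology-like domain protein induced by growth factors (ILMN_1687978, gene at chr12:76025447-76031776). In L-428 its signals were 423, 347 and 424 with vehicle and 577, 510.4 and 481 with AEZS-136. All treated arrays lay above all vehicle arrays (0.39, SE 0.090, adjusted p = 0.00145), and the value fell just short of the minimum change. It was called in 7 of 35 alternative settings, 4 of which left out an L-428 array, namely vehicle replicate 1 (0.44) or 3 (0.44) or AEZS-136 replicate 2 (0.41) or 3 (0.45). In L-540 the signals were 379, 333 and 324 with vehicle and 350.4, 398 and 416 with AEZS-136 (0.17, adjusted p = 0.166), and in KM-H2 they were 196, 201 and 188 with vehicle and 219, 211 and 219 with AEZS-136 (0.15, adjusted p = 0.301). In SUP-HD1 they were 132, 115 and 115 with vehicle and 111, 126 and 128 with AEZS-136, and the groups overlapped (0.01, adjusted p = 0.957), with the probe above background on 1 vehicle array and 2 treated arrays. A further PHLDA1 probe, ILMN_3251550, was above background on 13 of 24 arrays, and its response in L-428 was 0.01 (adjusted p = 0.923), so the probes of this gene disagreed.

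**Figure D2:**
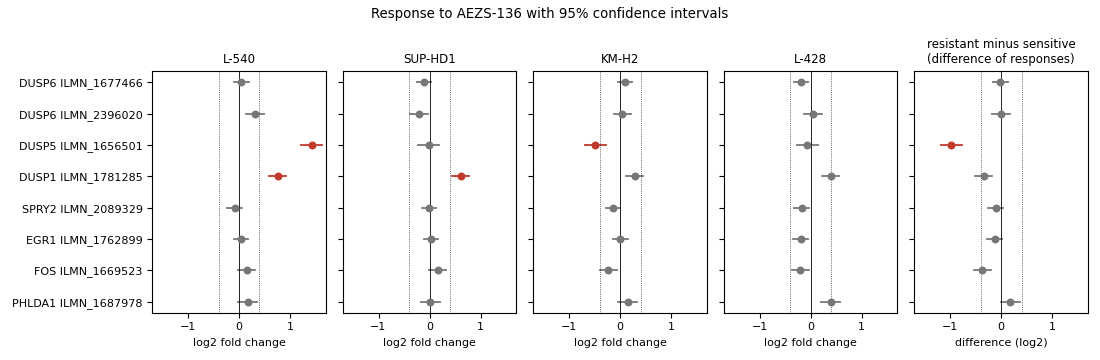
Response of each probe to AEZS-136 in the 4 lines (log2 fold change, point) with its 95% confidence interval (line), and in the last panel the difference between the classes (resistant minus sensitive). Red marks calls, and dotted lines mark a change of 0.4. DUSP5 stands at 1.42 in L-540 and at -0.49 in KM-H2, while DUSP1 lies above 0 in each line.

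The difference between the classes, the mean response of the resistant lines less that of the sensitive lines, was called for 1 of the 8 probes, against 6.74% of all probes. DUSP5 differed by -0.98 (SE 0.099, adjusted p = 7.6e-08). FOS (-0.37, adjusted p = 0.00227, with no signal above background in L-540) and DUSP1 (-0.34, adjusted p = 0.00344) passed the adjusted p but not the minimum change. The DUSP5 difference was not shared by both lines of the sensitive class, since the response of SUP-HD1 minus that of L-540 was -1.44 (SE 0.14, adjusted p = 2.34e-08).

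Between pairs of lines, responses were compared for all 8 probes. SUP-HD1 differed from L-540 for 2 probes (12.0% of all probes called), DUSP5 and the DUSP6 probe ILMN_2396020 (-0.53, SE 0.12, adjusted p = 0.0026). KM-H2 differed from L-540 for 2 (14.3%), DUSP5 (-1.91, adjusted p = 1.22e-10) and DUSP1 (-0.47, SE 0.11, adjusted p = 0.00359). L-428 differed from L-540 for DUSP5 only (-1.49, adjusted p = 1.32e-08, background 12.8%), and KM-H2 from SUP-HD1 for DUSP5 only (-0.47, SE 0.14, adjusted p = 0.027, background 10.0%). No probe was called between L-428 and SUP-HD1 (8.35%) or between L-428 and KM-H2 (8.85%), although DUSP5 came to 0.42 (95% interval 0.13 to 0.71, adjusted p = 0.0534) in the last pair. The limma p before adjustment was under 0.05 for 4 and 3 probes in these pairs, and the share of all probes at that level was not computed. Contrasts with 1 line in common share its arrays.

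The lines were also compared with vehicle alone, to set each response beside its starting level. Of the 8 probes, 3 differed between SUP-HD1 and L-540 (33.1% of all probes), 5 between KM-H2 and L-540 (35.0%), 6 between L-428 and L-540 (31.6%), 3 between KM-H2 and SUP-HD1 (34.3%), 5 between L-428 and SUP-HD1 (29.8%) and 7 between L-428 and KM-H2 (33.0%). DUSP6 probe ILMN_1677466 and SPRY2 passed the filter through L-428 arrays alone, so their difference followed from passing. Both are included in the counts of each comparison with L-428 and lend those counts no support.

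The highest vehicle level of DUSP6, SPRY2 and EGR1 was found in L-428. For DUSP6, probe ILMN_2396020 was 6.04-fold higher in L-428 than in L-540 and 6.28-fold higher than in SUP-HD1 (adjusted p = 2.52e-19 and 1.74e-19), while L-540 and SUP-HD1 did not differ beyond their spread (adjusted p = 0.623). Against KM-H2, where it was not above background, the difference was at least 6.64-fold, taking the lowest signal above background on each array as the floor. Probe ILMN_1677466 was at least 2.90-fold higher in L-428 than in L-540, 2.92-fold than in SUP-HD1 and 2.96-fold than in KM-H2. SPRY2 was at least 2.08-fold, 2.09-fold and 2.12-fold higher than in the same lines. The folds of ILMN_1677466 and SPRY2 are descriptions only, since both probes passed the filter through L-428 alone. EGR1 was 1.62-fold higher in L-428 than in KM-H2, the next line (adjusted p = 2.54e-09), then came SUP-HD1 and L-540, which did not differ beyond their spread (adjusted p = 0.154).

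DUSP5 and DUSP1 had their highest vehicle level in L-540, the line in which both rose further. DUSP5 was 4.08-fold higher in L-540 than in KM-H2 (adjusted p = 1.24e-15), which was 1.68-fold above SUP-HD1 (adjusted p = 3.34e-07). SUP-HD1 was above L-428 by 0.27 on the log2 scale (adjusted p = 0.027), under the minimum change. DUSP1 was lowest in KM-H2, 2.39-fold below SUP-HD1 (adjusted p = 3.63e-13). SUP-HD1 and L-428 did not differ beyond their spread (adjusted p = 0.211), and L-428 lay below L-540 by 0.36 (adjusted p = 0.000475), under the minimum change.

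PHLDA1 was highest in L-428 and L-540, which did not differ beyond their spread (adjusted p = 0.0627), followed by KM-H2, 1.77-fold below L-540 (adjusted p = 1.43e-08). SUP-HD1 was lowest (adjusted p = 2.82e-07 against KM-H2), and since it was above background there on 1 of 3 vehicle arrays, no fold is given. FOS was above background on all vehicle arrays of L-428 and KM-H2, at least 1.27-fold and at least 1.06-fold above L-540, and on 2 of 3 in SUP-HD1. KM-H2 and SUP-HD1 did not differ beyond their spread in FOS (adjusted p = 0.364).

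Over the 24 arrays the pair of DUSP6 probes followed each other (r = 0.99), and SPRY2 followed them with r = 0.98 each. These arrays share lines, so the values mostly follow the level of L-428 and are given as descriptions. The probes most like each member over the 24 arrays were SPINT2 (r = 0.994) for DUSP6 probe ILMN_1677466, SLC25A21 (0.993) for ILMN_2396020 and NDST4 (0.991) for SPRY2. For DUSP5 they were PTGIS, GSDME and HGC6.3 (all 0.98), and for DUSP1 they were MVP (0.973), ST8SIA4 (0.963) and TOM1 (0.963). EGR1 was followed by BCHE (0.976), FOS by SPIB (0.882) and PHLDA1 by AKAP17A (0.972).

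The rest of the pathway was read from 4 lists of genes, joined to probes by gene symbol. Of 14 further feedback genes (DUSPs, Sprouty and SPRED proteins, and the receptor inhibitor ERRFI1), 10 had a tested probe, 11 probes in all. In L-540, 0 were called higher and 2 lower (9.59% and 9.96% of all probes), and in SUP-HD1 0 and 0 (6.51% and 6.26%). The counts were 1 and 0 in KM-H2 (4.42% and 3.48%) and 0 and 2 in L-428 (6.62% and 6.69%). SPRY1 fell in L-540 at both probes (-0.48 and -0.56, adjusted p = 2.47e-05 and 4.17e-06) and in L-428 at probe ILMN_2329914 (-0.58, adjusted p = 5.84e-06), with -0.22 (adjusted p = 0.0437) at the other. SPRED1, an inhibitor of RAS-RAF signaling, fell in L-428 (-0.47, adjusted p = 0.000889). DUSP2, a nuclear phosphatase, rose in KM-H2 (0.48, adjusted p = 0.00055) and was -0.21, -0.27 and -0.25 in L-540, SUP-HD1 and L-428.

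Of 29 further immediate early genes, 21 had a tested probe, 25 probes in all. In L-428, 8 were called higher and 2 lower, in L-540 6 and 3, in KM-H2 4 and 0, and in SUP-HD1 3 and 2. Over all probes 9.59% were called higher and 9.96% lower in L-540, 6.51% and 6.26% in SUP-HD1, 4.42% and 3.48% in KM-H2 and 6.62% and 6.69% in L-428. KLF6, a zinc-finger transcription factor, rose in every line, by 1.40 in L-540, 0.99 in SUP-HD1, 0.65 in L-428 and 0.61 in KM-H2 (adjusted p = 9.93e-12 to 4.78e-05). ATF3, a stress-induced transcription factor, rose by 1.42 in L-540, 0.70 in SUP-HD1 and 0.87 in L-428, and was 0.35 in KM-H2 (adjusted p = 0.0113). JUND, a JUN family member of AP-1, rose by 1.06 in L-540 and 0.62 in L-428, and was 0.31 in SUP-HD1 and 0.32 in KM-H2. MYC, a growth regulator whose transcript responds to ERK, fell at both probes in L-540 (-0.64 and -0.69), SUP-HD1 (-0.85 and -0.74) and L-428 (-0.57 and -0.68), while in KM-H2 it rose at ILMN_1680618 (0.41, adjusted p = 0.00116) and was 0.30 at ILMN_2110908.

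Of 13 further ERK-induced genes, 8 had a tested probe (11 probes). In L-540, 2 were called higher and 0 lower (9.59% and 9.96% of all probes), and in SUP-HD1 0 and 1 (6.51% and 6.26%). The counts were 1 and 0 in KM-H2 (4.42% and 3.48%) and 0 and 1 in L-428 (6.62% and 6.69%). HBEGF, a ligand of the EGF receptor, rose in L-540 (1.24, adjusted p = 5.5e-13), and its probe was not above background in the other lines. KCNN4, a calcium-activated potassium channel, rose in L-540 (0.55, adjusted p = 1.9e-05). ETV5, an ETS transcription factor, fell in SUP-HD1 (-0.46, adjusted p = 1e-05) and rose in KM-H2 (0.53, adjusted p = 2.03e-06, above background on 2 of 3 vehicle arrays) at probe ILMN_1739222. The other ETV5 probe, ILMN_1723260, gave -0.11 (adjusted p = 0.347) in SUP-HD1, above background on 3 vehicle and 2 treated arrays, and was not above background in KM-H2, so the probes disagreed in SUP-HD1. CCND1, which encodes cyclin D1, was above background on all vehicle arrays of L-428 and on no other array. Its probe passed the filter through those arrays alone, so its lower value with AEZS-136 in L-428 followed from passing. It is the probe called lower in L-428 and lends that count no support.

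Of 20 genes of the cascade itself, 14 had a tested probe (20 probes), and 0 were called in L-540 (19.5% of all probes) or KM-H2 (7.90%). In SUP-HD1, 0 were called higher and 1 lower (6.51% and 6.26% of all probes), and in L-428 0 and 3 (6.62% and 6.69%). Before adjustment the limma p was under 0.05 for 9 cascade probes in L-540 and 5 in KM-H2, and for 3 feedback probes in SUP-HD1, where none was called. The share of all probes at that level was not computed. GRB2, the adaptor that links receptors to RAS activation, fell in SUP-HD1 (-0.45, adjusted p = 0.00395) and L-428 (-0.71, adjusted p = 3.36e-05) at probe ILMN_1748797. The other GRB2 probe, ILMN_1742521, was above background on all arrays of both lines and gave -0.12 (adjusted p = 0.393) and -0.18 (adjusted p = 0.131), so the probes disagreed. MAPK3, which encodes ERK1, and MAP2K1, which encodes MEK1, fell in L-428 by 0.48 (adjusted p = 0.000205) and 0.43 (adjusted p = 0.00197). The other MAPK3 probe, ILMN_2402341, gave -0.34 (adjusted p = 0.00171) in L-428, under the minimum change. The median log2 fold change in L-428 was -0.14 over the feedback probes, 0.11 over the immediate early probes, -0.0079 over the other ERK-induced probes and -0.11 over the cascade probes, beside -0.0017 over all probes. In L-540 these medians were -0.05, 0.11, 0.0093 and 0.0017, in SUP-HD1 0.004, 0.06, -0.02 and -0.0069, and in KM-H2 0.02, 0.07, 0.02 and 0.02.

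**Figure D3:**
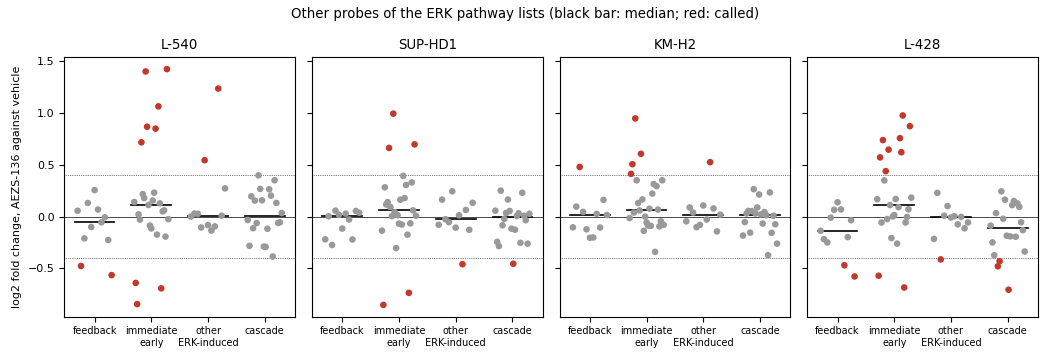
Log2 fold change of each tested probe of the 4 pathway lists, by cell line, with red points for calls, black bars for the list medians and dotted lines at 0.4 and -0.4. The immediate early list holds the highest points, ATF3 at 1.42 and KLF6 at 1.40 in L-540. No cascade probe is called in L-540 (19.5% of all probes) or KM-H2 (7.90%).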

How the data were processed

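Total RNA of 4 HL cell lines was labelled and hybridised to 24 Illumina arrays, 3 per line and treatment, and grouped by the submitters' labels, while vehicle and classes were taken from the paper. The authors deposited signal intensity exported from BeadStudio (linear, not normalized) with a detection fraction, read as 1 minus the detection p, and a series matrix of log2 values, which rank the probes of each array as the intensities do (medians 6.79 to 6.80, not centred). The methods of the paper name lumi's robust spline as normalization, and the matrix itself does not state its own. Symbols come from the platform annotation (30113 of 47323 probes with 1 symbol, 8 with several, 17202 with none), and promoters from RefSeq.

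Log2 intensities were quantile-normalized over 24 arrays, and 20027 probes above background (detection p below 0.01) on 3 or more arrays were fitted with 8 group means in limma 3.58.1 under R 4.3.3 (16 residual and 8.94 prior degrees of freedom). The fit was tested on simulated data, and plots were made in Python with matplotlib. The number of arrays limits the precision (median SE 0.085), and the smallest p that an exact test of 1 probe allows is 0.1 for 3 against 3 arrays. The members and gene lists were chosen with earlier results of these data known. Named were all 8 members, up to 5 called probes per list with the largest mean absolute change, and the probes most correlated with each member. Same-numbered arrays of a line did not deviate together (12 pairs, r from -0.20 to 0.15), so the replicate number was not used as pairing. Alternatives were other normalizations, background corrections, filters and tests, a replicate block, no minimum change, and leaving out each array. A setting with series matrix values, the methods' t-test and no filter was chosen after seeing the data.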

Additional observations from a re-analysis of the deposited data

Results flagged for a closer look

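Between the resistant and the sensitive class, the response of DUSP5 differed by -0.98 (SE 0.099, adjusted p = 7.6e-08), by a test of the difference itself. The same kind of test set DUSP5 apart in pairs of lines, by -1.44 for SUP-HD1 minus L-540, -1.91 for KM-H2 minus L-540, -1.49 for L-428 minus L-540 and -0.47 for KM-H2 minus SUP-HD1 (adjusted p = 0.027). The DUSP6 probe ILMN_2396020 differed by -0.53 for SUP-HD1 minus L-540 (adjusted p = 0.0026), with 2 vehicle arrays and 1 treated array of SUP-HD1 above background. DUSP1 differed by -0.47 for KM-H2 minus L-540 (adjusted p = 0.00359). All adjusted p-values are from limma, and the 3 contrasts with L-540 share its arrays.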

How the results depend on the processing

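Of 40 single responses and class differences, 28 kept their side of the threshold in every alternative setting, among them DUSP5 and DUSP1 in L-540 and the class difference of DUSP5. None of the called values changed sign, and 9 uncalled ones did in some setting. Median scaling gave 0 calls in KM-H2 (DUSP5 -0.37) and 1 in L-428 (DUSP1 0.40), and series matrix values gave 2 in L-428 (DUSP1 0.43, PHLDA1 0.41). Normexp background correction gave 3 in L-540 (DUSP6 ILMN_2396020 0.76 added), 2 in SUP-HD1 (the same probe, -0.63), 3 in KM-H2 (DUSP1 0.52 and FOS -0.73 added), 2 in L-428 and 2 between classes (FOS -0.98 added). Without a minimum change, 3 probes were called in L-540 (DUSP6 ILMN_2396020 added), 2 in KM-H2, 4 in L-428 and 3 between classes. With series matrix values, the methods' t-test and no filter, chosen after seeing the data, 0 were called in SUP-HD1 (DUSP1 0.61, adjusted p = 0.0839) and 0 in KM-H2 (DUSP5 -0.46, adjusted p = 0.0736). That setting called only 350 of all 47323 probes in SUP-HD1 and 166 in KM-H2. The causes of these moves were not tested.

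Leaving out 1 array gave 0 to 2 calls in L-428, where each of its 6 arrays when left out gave at least 1, and 1 to 2 between classes, where FOS was added without SUP-HD1 AEZS-136 replicate 2, L-428 vehicle replicate 1 or L-428 AEZS-136 replicate 3 (-0.40, -0.42 and -0.41). The replicate block gave 0 calls in L-428, 1 in KM-H2, 1 in SUP-HD1, 2 in L-540 and 1 between classes, and so changed no count. Signals under background limit what can be read of DUSP6 probe ILMN_1677466 and SPRY2 outside L-428 and of FOS in L-540.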
